A study of Mus musculus with 10 samples.

Results

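The genes described here were Slc2a4, Gsk3b, Ppp1cb and Cblb, 4 genes of insulin action and glucose handling in the mouse heart. Each had 1 named probe, so that 4 probes of the 22359 mRNA probes on the array carry the results. They were found by gene symbol in a supplementary sheet of the study that listed probes with lower signal in aged hearts, of which 690 named probes were at hand. Any other probe of these genes on the array had no name here and was not read. The sheet was made from the same hearts, so these probes were chosen by their lower measured signal at 20 months against 3 months. That difference is given below as a description. Where a probe is said to be called lower, the limma model over the whole array is meant, and since the same hearts chose the probes such a call is no independent evidence of a fall.

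Heart RNA of 10 male C57BL/6 mice was hybridized to one-colour Arraystar Mouse LncRNA V4.0 arrays, 1 mouse per array, with 5 young mice aged 3 months (3m) and 5 aged mice of 20 months (20m). The mice were wild type, and the aged ones were bought old and kept until 20 months. By the methods the young mice came from one supplier and the aged mice from another, and the effects of age and supplier cannot be told apart. None of the 6 cardiomyocyte marker genes looked for had a named probe, so the tissue label could not be checked against them.

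Slc2a4 encodes GLUT4, the glucose transporter of heart, skeletal muscle and fat, which insulin moves from vesicles inside the cell to the surface. Gsk3b encodes glycogen synthase kinase 3 beta, which phosphorylates and inactivates glycogen synthase and is itself inhibited by the kinase AKT when insulin acts. Ppp1cb encodes the beta catalytic subunit of protein phosphatase 1, which removes phosphates from glycogen synthase and from many other proteins, among them the myosin light chain. Cblb encodes a ubiquitin ligase that marks activated receptors and their adaptor proteins for removal, and is best known as a brake on T cell activation.

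The letters that were on the array show what each probe could read. Each probe is given 5′ to 3′ as the study listed it, with stop triplets (TAA, TAG and TGA, in any frame of this strand) in capitals. The probes of Slc2a4 and Gsk3b are given whole, at 60 bases, because each keeps at least 1 frame with no stop over its full length. The probes of Ppp1cb and Cblb carry a stop in each of the 3 frames, and their first 30 bases are given.
Slc2a4: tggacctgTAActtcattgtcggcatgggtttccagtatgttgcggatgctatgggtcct
Gsk3b: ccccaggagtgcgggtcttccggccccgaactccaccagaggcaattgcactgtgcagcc
Ppp1cb: agttgtcTAAtTGAtacaacgtcTGAgTGA
Cblb: gaaatgcagtttttacgacttgtcTAAtgt
The Slc2a4 probe had 2 frames without a stop and the Gsk3b probe had 3. Guanine and cytosine made up 50% of the Slc2a4 probe, 66.7% of the Gsk3b probe, 33.3% of the Ppp1cb probe and 30% of the Cblb probe. Over the 690 named probes the median was 45.0% with quartiles of 35.0% and 51.7%, so that Gsk3b lay above the upper quartile and Ppp1cb and Cblb below the lower one. The position of each probe along its transcript was not analysed here, nor was which splice forms of its gene it reads. The sheet placed Slc2a4 at chr11:69942543-69948149 on the minus strand, Gsk3b at chr16:38090288-38240779 on the plus strand, Ppp1cb at chr5:32458843-32495523 on the plus strand and Cblb at chr16:52031225-52208048 on the plus strand. These spans overlapped those of the same genes in the GRCm38.p6 annotation of RefSeq, as did those of all 672 named probes whose symbol was in that annotation.

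Values below are log2 normalized intensities, that is, scanner intensities brought to the same distribution on every array and put on a log2 scale. The 75th percentile of the scanner intensity was 129 to 209 on the 3m arrays and 109 to 144 on the 20m arrays, and no spot was saturated. Some arrays stood apart. Replicates 1 and 2 of the 3m group were scanned separately from the other 8 arrays, according to the scan times in the scanner files. Replicate 3 of the 20m group had the lowest of the aged values at 57.8% of the 690 named probes, although over the 16720 mRNA probes tested its share of 28.9% was close to the 26.7% of replicate 4. Replicate 3 also had the highest ratio of signal at the 3′ end to signal at the 5′ end of the GAPDH control transcript, a log2 ratio of 3.06. This ratio was 1.98 ± 0.25 (SD, n = 5) in the 3m group and 2.59 ± 0.30 (SD, n = 5) in the 20m group, and the groups did not overlap. The same ratio for the PGK1 control was 8.29 ± 0.26 (SD, n = 5) and 9.13 ± 0.13 (SD, n = 5), again without overlap. The values of Slc2a4, Gsk3b, Ppp1cb and Cblb, and the counts of the gene lists, are given with and without these arrays.

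The transporter comes first. Slc2a4 read 9.57, 9.67, 9.09, 9.00 and 8.90 in the 3m hearts, in the order of replicates 1 to 5. In the 20m hearts it read 7.97, 7.43, 6.67, 7.98 and 8.03. Every aged value lay below every young value, with a gap of 0.87 between the lowest young and the highest aged heart. The 3m mean was 9.25 ± 0.35 (SD, n = 5) and the 20m mean 7.61 ± 0.58 (SD, n = 5), a log2 difference of -1.63 (SE 0.27). The aged hearts thus held 32.3% of the young signal, a 3.10-fold lower level of this transporter's mRNA. Aged replicate 3 was the lowest by far, while the other 4 aged hearts lay between 7.43 and 8.03. Without that heart the log2 difference was -1.40. With a control end ratio in the model, described below, the level was 67.0% (GAPDH) or 80.6% (PGK1) of the young one, and Slc2a4 was not called.

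The glycogen branch holds the kinase and the phosphatase. Gsk3b read 7.50, 7.96, 7.49, 7.31 and 7.15 in the 3m hearts and 6.18, 6.09, 6.26, 5.45 and 5.24 in the 20m hearts. The groups were 0.89 apart, and here aged replicates 4 and 5 were the low ones while replicate 3 was the highest of the aged hearts. The means were 7.48 ± 0.30 (SD, n = 5) and 5.84 ± 0.46 (SD, n = 5), a log2 difference of -1.63 (SE 0.23), or 32.2% of the young level. With normexp background correction the level was 49.9% of the young one. That correction added an offset of 50 to every intensity, which by arithmetic draws the log2 differences of dim probes toward 0. The aged Gsk3b probe had scanner intensities of 31 to 65. With the PGK1 end ratio in the model, at 35.3%, Gsk3b was not called.

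Ppp1cb read 9.10, 9.20, 8.77, 8.63 and 8.56 in the 3m hearts and 7.20, 6.95, 6.31, 7.92 and 7.55 in the 20m hearts. The gap between the groups was 0.64, and the low aged heart was replicate 3, as for Slc2a4. The means were 8.86 ± 0.28 (SD, n = 5) and 7.19 ± 0.61 (SD, n = 5), a log2 difference of -1.67 (SE 0.27), or 31.5% of the young level. With the GAPDH or the PGK1 end ratio in the model it was 63.3% or 63.5%, and Ppp1cb was not called. The kinase that inactivates glycogen synthase and the phosphatase subunit that reactivates it thus both read lower in the aged hearts. Their factors were close in this model, where the named probes at hand mostly lie in a narrow range (quartiles -1.88 and -1.48), and were apart in a model described below.

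The receptor brake Cblb read 10.45, 10.38, 9.98, 9.90 and 9.83 in the 3m hearts and 8.54, 8.47, 7.64, 9.15 and 9.02 in the 20m hearts. The groups were 0.68 apart, and aged replicate 3 was again the lowest. The means were 10.11 ± 0.29 (SD, n = 5) and 8.56 ± 0.59 (SD, n = 5), a log2 difference of -1.54 (SE 0.26), or 34.3% of the young level. With the GAPDH or the PGK1 end ratio in the model it was 68.3% or 70.2%, and Cblb was not called.

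**Figure D1:**
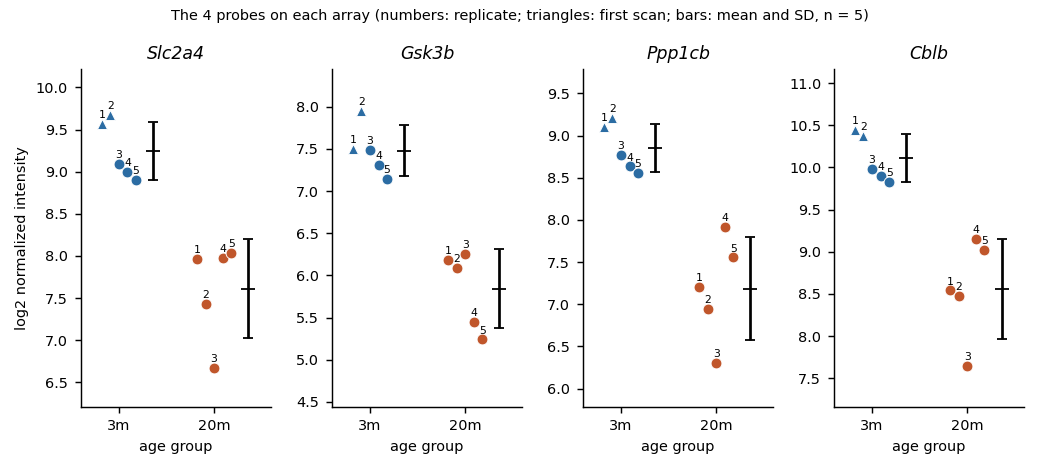
Log2 normalized intensity of the 4 probes (y axis, 1 panel per gene) in the 3m and 20m groups (x axis), with 1 point per heart numbered by replicate, triangles for the separately scanned 3m hearts, and bars for the mean and SD of 5 hearts. No aged heart reaches a young one in any panel, and aged replicate 3 is lowest for Slc2a4, Ppp1cb and Cblb but highest of the aged hearts for Gsk3b.

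All 4 probes were well above background on all 10 arrays. In the limma model over the whole array all 4 were called lower at 20m (adjusted p under 0.05 and a log2 difference of -1 or lower), where 9.65% of all tested mRNA probes were. In all 4 every aged value lay below every young value, as it did for 16.2% of tested mRNA probes. Since this contrast chose the probes, nothing is read from these counts. Over all tested mRNA probes the median log2 difference was -0.05, with quartiles of -0.51 and 0.35. Among the 690 named probes, whose median was -1.63, the 4 stood near the middle when ranked from the largest fall, Ppp1cb at 296, Gsk3b at 343, Slc2a4 at 345 and Cblb at 434. The named probe with the smallest fall had a log2 difference of -1.35, while the limit in the methods was 1 in size. The ranks thus hold only within the part of the sheet at hand.

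All 4 probes read higher in the separately scanned 3m hearts than in the other 3 young hearts. The means of these subsets differed by 0.62 for Slc2a4, 0.41 for Gsk3b, 0.50 for Ppp1cb and 0.51 for Cblb on the log2 scale. Within the scan that held both ages, with 3 young and 5 aged hearts, the log2 difference was -1.38 (SE 0.30) for Slc2a4, -1.47 (SE 0.25) for Gsk3b, -1.47 (SE 0.31) for Ppp1cb and -1.34 (SE 0.30) for Cblb. The falls were smaller there. All 4 probes were called lower beside 5.93% of tested mRNA probes, from which nothing is read, since these arrays are among those that chose the probes. Without aged replicate 3 the log2 difference was -1.40 for Slc2a4, -1.74 for Gsk3b, -1.45 for Ppp1cb and -1.31 for Cblb, and the share of all tested mRNA probes called lower was 8.04%. The scan and the slide or handling that went with it cannot be told apart.

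By the methods the sheet was selected on the difference between the group means and on its adjusted p, which also depends on the spread within each group. Which hearts of a group read high or low was no criterion, although the likeness below is not independent of that spread. To look at it, the mean of its own age group was taken from each heart, and the probes were compared over the 10 hearts by Pearson's r, as a description with no p. Slc2a4, Ppp1cb and Cblb varied together from heart to heart. Their r was 0.92 between Slc2a4 and Ppp1cb, 0.94 between Slc2a4 and Cblb, and 0.98 between Ppp1cb and Cblb. Gsk3b had an r of -0.23 to Slc2a4, -0.41 to Ppp1cb and -0.45 to Cblb, values that join opposite patterns in the age groups. Among the young hearts Gsk3b ran with the others, highest in replicate 2 and lowest in replicate 5 as Slc2a4 and Ppp1cb were. Among the aged hearts other than replicate 1 it lay on the other side of the group mean from Slc2a4, with replicate 3 at 0.41 above the group mean for Gsk3b and at -0.95 for Slc2a4, and replicate 5 at -0.60 for Gsk3b and 0.42 for Slc2a4. With 5 hearts per group, no r is given within one age. The low aged replicate 3 carried part of this pattern. Without it the first 3 values were 0.83, 0.83 and 0.96, and those of Gsk3b were 0.17, -0.17 and -0.21. With the mean of each scan also removed, Slc2a4 kept an r of 0.91 to Ppp1cb and 0.92 to Cblb, and Gsk3b had an r of -0.55 to Slc2a4, -0.69 to Ppp1cb and -0.75 to Cblb. Within a scan the young values of Slc2a4, Ppp1cb and Cblb differed little, so these values rest mostly on the aged hearts.

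**Figure D2:**
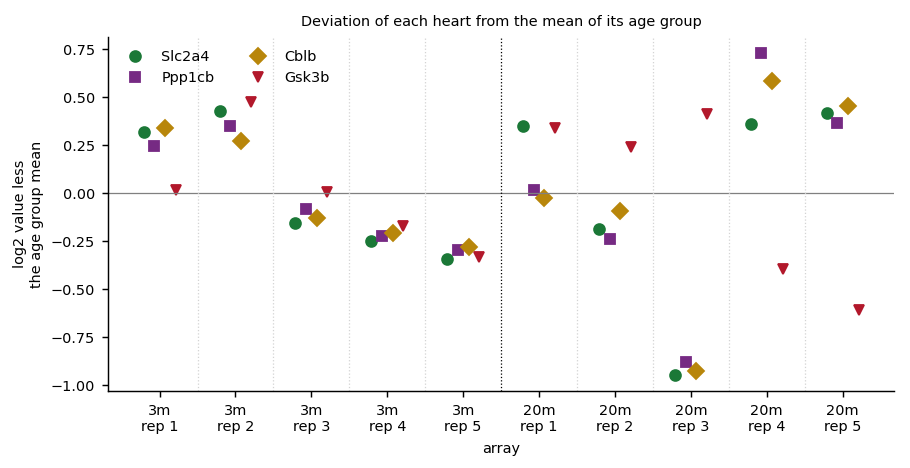
Log2 value of each probe less the mean of its age group (y axis) in each of the 10 hearts (x axis, replicates in label order), with 1 symbol per gene. Slc2a4, Ppp1cb and Cblb sit close to each other in nearly every heart, and Gsk3b runs with them in the young hearts but lies above them in aged replicate 3 and below them in aged replicates 4 and 5.

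Many other probes varied like Slc2a4. Among 14121 other mRNA probes well above background on every array the median r to Slc2a4 was 0.15 (quartiles -0.48 and 0.62), and among 461 other named probes it was 0.71 (quartiles 0.42 and 0.85). Of the 460 named probes left when the compared probe was set aside too, 30 had a higher r to Slc2a4 than Cblb, 40 than Ppp1cb and 433 than Gsk3b. Cblb and Ppp1cb thus lay near the top of the named probes by likeness to Slc2a4, and Gsk3b near the bottom.

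The named probes most like Slc2a4 over the 10 hearts were Psmd1 (r = 0.98), a subunit of the proteasome's regulatory particle, Agtr1a (r = 0.98), the type 1 receptor of angiotensin II, Msi2 (r = 0.98), an RNA-binding protein, Zfp106 (r = 0.98), a zinc finger protein, and Lypla1 (r = 0.98), a thioesterase that removes palmitate from proteins. The least like it were Oprm1 (r = -0.57), the mu opioid receptor, Olfr53 (r = -0.52), an olfactory receptor, and Cacna1a (r = -0.48), a neuronal calcium channel subunit.

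The hearts also differed in the GAPDH end ratio described above, and 3 of the 4 probes followed it in both age groups. In the young group the ratio differed mainly between the scans, so there the ratio and the scan cannot be told apart. With the age group means removed from both measures, r over the 10 hearts was -0.97 for Slc2a4 (Spearman's rho -0.90), -0.93 for Ppp1cb (rho -0.87) and -0.94 for Cblb (rho -0.89). Hearts with a higher ratio read lower for these genes. For Gsk3b the r was 0.20 and the rho -0.05, and again the age groups differed. Its young values were lower at the higher ratios, 7.49, 7.31 and 7.15 at ratios of 2.14 to 2.17 against 7.50 and 7.96 at ratios of 1.70 to 1.71. Its aged values were not, at 5.45 for the lowest aged ratio of 2.33 and 6.26 for the highest of 3.06. That difference between the ages was not tested, and the low young ratios were all in the separate scan. Without the hearts farthest from the middle of the ratio, aged replicate 3 and young replicate 2, r was -0.96 for Slc2a4, -0.88 for Ppp1cb, -0.92 for Cblb and 0.18 for Gsk3b. With scan means removed as well, r was -0.98, -0.96 and -0.97 for the first 3 genes and 0.66 for Gsk3b. Within a scan the young ratios differed little, so these values rest mostly on the aged hearts.

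The same r was taken for every probe as a background. Over 14122 mRNA probes well above background on all arrays the median r to the GAPDH ratio was -0.20 (quartiles -0.67 and 0.53), with 0.34% of them below Slc2a4, 1.51% below Cblb, 2.16% below Ppp1cb and 63.8% below Gsk3b. Over 462 named probes the median was -0.73, with 1.52% below Slc2a4, 6.93% below Cblb, 9.31% below Ppp1cb and 91.3% below Gsk3b. The ratio of the PGK1 control was followed less closely, with an r of -0.67 for Slc2a4, -0.51 for Ppp1cb, -0.54 for Cblb and -0.08 for Gsk3b. Of all these mRNA probes 22.1% lay below Slc2a4 by that measure, 33.9% below Ppp1cb and 32.2% below Cblb, and with scan means removed r was -0.51, -0.35 and -0.36. The points of these relations share their RNA, labeling and array, since both measures come from the same hybridization.

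**Figure D3:**
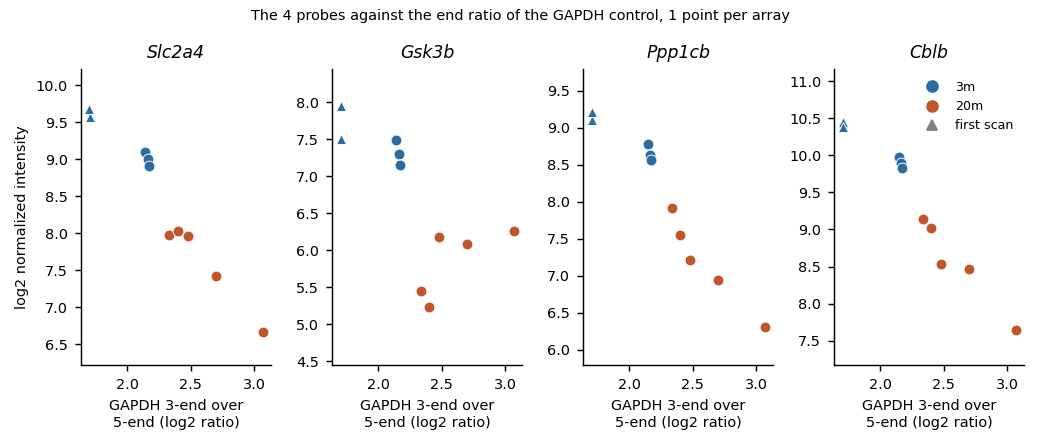
Log2 normalized intensity of the 4 probes (y axis, 1 panel per gene) against the log2 ratio of 3′ end to 5′ end signal of the GAPDH control (x axis), with 1 point per heart, blue for 3m, orange for 20m and triangles for the separately scanned 3m hearts. Slc2a4, Ppp1cb and Cblb descend along the ratio in both age groups, whereas the aged values of Gsk3b do not. Among the young hearts the ratio differs mainly between the scans.

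When the GAPDH ratio of each array was added to the model beside the age group, the age difference shrank for the 3 probes that follow it. There it was -0.58 (SE 0.18) for Slc2a4, -0.66 (SE 0.21) for Ppp1cb and -0.55 (SE 0.20) for Cblb on the log2 scale, and none of these was called lower. Gsk3b had a log2 difference of -1.81 (SE 0.37) in this model and was called. The kinase Gsk3b was then at 28.5% of the young level and the phosphatase subunit Ppp1cb at 63.3%. With the ratio in the model 1 of the 4 probes was called lower, beside 3.18% of all tested mRNA probes. Within the scan that held both ages the same model gave -0.54 for Slc2a4, -0.59 for Ppp1cb, -0.49 for Cblb and -1.96 for Gsk3b. The ratio itself did not overlap between the age groups. For all 4 genes the part of age and the part of the ratio in the falls therefore cannot be told apart. The model also takes 1 slope for both ages, while Gsk3b ran differently along the ratio in young and aged hearts. No contrast between Gsk3b and Ppp1cb is read from it.

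With the PGK1 ratio in its place none of the 4 was called, where 2.24% of tested mRNA probes were, and the log2 differences were -0.31 (SE 0.55) for Slc2a4, -0.66 (SE 0.61) for Ppp1cb, -0.51 (SE 0.59) for Cblb and -1.50 (SE 0.59) for Gsk3b. The standard errors were larger than with the GAPDH ratio for all 4 probes. For Slc2a4, Ppp1cb and Cblb the difference with the PGK1 ratio was about 1 standard error or less.

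The wider pathway was followed through a list of 112 genes of insulin signaling, glycogen, glucose transport and glucose use, of which 16 had a named probe. All 16 were called lower, which the choice of the sheet fixes, beside 9.65% of all tested mRNA probes. In 14 of the 16 the ages did not overlap, as in 645 of the 690 named probes and 16.2% of all tested mRNA probes. Their median log2 difference was -1.64, beside -1.63 over the 690 named probes they come from and -0.05 over all tested mRNA probes. Without aged replicate 3 all 16 were called, beside 681 of the 690 named probes and 8.04% of tested mRNA probes. In the scan that held both ages 14 of them were tested and 12 were called, all but Slc2a12 and Phka2, beside 586 of 627 named probes and 5.93% of tested mRNA probes. By role, the named genes were 4 of 18 in glucose transport and its traffic, 3 of 19 in glycogen metabolism, 4 of 10 among brakes on the receptor, 3 of 23 in the kinase arm, 1 of 14 in the receptor and its docking proteins, 1 of 10 among outputs and 0 of 18 in glucose use. The genes of the list without a named probe were not analysed here, so these shares say nothing about how the rest of the pathway read.

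Beside Slc2a4 the transport genes were Rab5a and Rab8a, small GTPases of early endosomes and of GLUT4 vesicle traffic, and Slc2a12, another glucose transporter of heart and muscle. The log2 difference was -2.02 (SE 0.22) for Rab5a and -1.98 (SE 0.16) for Rab8a. For Slc2a12 it was -1.64 (SE 0.40), its age groups overlapped and only 2 of the 5 aged hearts were above background. Beside Gsk3b and Ppp1cb the glycogen genes included Phka2, a regulatory subunit of the phosphorylase kinase that starts glycogen breakdown. Its log2 difference was -1.45 (SE 0.39), with overlapping groups and 3 of 5 aged hearts above background.

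Beside Cblb the brakes were Ptprf, a receptor tyrosine phosphatase that acts on the insulin receptor, Ide, the insulin-degrading enzyme, and Enpp1, an ectoenzyme that binds and inhibits the insulin receptor. Ptprf had a log2 difference of -2.30 (SE 0.23) and Ide one of -1.77 (SE 0.31). Enpp1 was above background in all 5 young hearts and in 0 of 5 aged hearts. A bound in the main processing put its level at 20m 2.24-fold lower. This bound sets the young mean against, on each aged array, the lowest signal that was well above background or the probe's own signal, whichever was higher. The fitted log2 difference of Enpp1 was -0.34 (SE 0.07) with normexp, -0.96 (SE 0.25) with the GAPDH ratio and -0.22 (SE 0.33) with the PGK1 ratio. All were smaller than the bound (1.17 on the log2 scale), so it is no minimum outside the main processing.

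In the kinase arm Rictor, the defining subunit of mTOR complex 2, which phosphorylates AKT, was above background in 0 of 5 aged hearts. By the same bound it was 2.74-fold lower there. Its fitted log2 difference was -0.49 (SE 0.09) with normexp and -0.95 (SE 0.39) with the PGK1 ratio, both smaller than the bound (1.45 on the log2 scale). With the GAPDH ratio it was -1.48 (SE 0.23). Flcn, the folliculin regulator of mTOR complex 1, had a log2 difference of -1.43 (SE 0.28) with 3 of 5 aged hearts above background, and Prkce, protein kinase C epsilon, one of -1.42 (SE 0.24). Hras, a small GTPase downstream of receptor docking, had one of -1.52 (SE 0.16), and Thrb, the beta receptor of thyroid hormone, one of -1.98 (SE 0.45).

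With the GAPDH ratio in the model 6 of the 16 probes were called lower, which were Gsk3b, Rab8a (-1.87, SE 0.22), Ptprf (-1.81, SE 0.33), Hras (-1.73, SE 0.22), Rab5a (-1.48, SE 0.28) and Rictor. Beside them 248 of the 690 named probes, which include the list, and 3.18% of tested mRNA probes were called. In this model the list was thus called about as often as the named probes as a whole. Of the 16, 15 had a log2 difference under 0 in that model, as had 685 of the 690 named probes, and the exception was Phka2 with a log2 difference of 0.04 (SE 0.34). Slc2a12 had -0.39 (SE 0.47), so that neither Slc2a4 nor Slc2a12 was called in that model. With the PGK1 ratio 2 of the 16 were called lower, Hras (-2.02, SE 0.33) and Rab8a (-1.97, SE 0.36), beside 96 of the 690 named probes and 2.24% of tested mRNA probes, so Gsk3b, Ptprf, Rab5a and Rictor were not. In that model 13 of the 16 had a log2 difference under 0, called or not, as had 626 of the 690 named probes, and Slc2a12 (0.93, SE 0.63), Flcn (0.16, SE 0.52) and Phka2 (0.13, SE 0.91) did not. With normexp background correction, where 3.26% of tested mRNA probes were called lower, 11 of the 16 were, beside 329 of the 690 named probes, and the others were Enpp1, Rictor, Flcn, Slc2a12 and Phka2, the probes that were not above background in every aged heart.

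**Figure D4:**
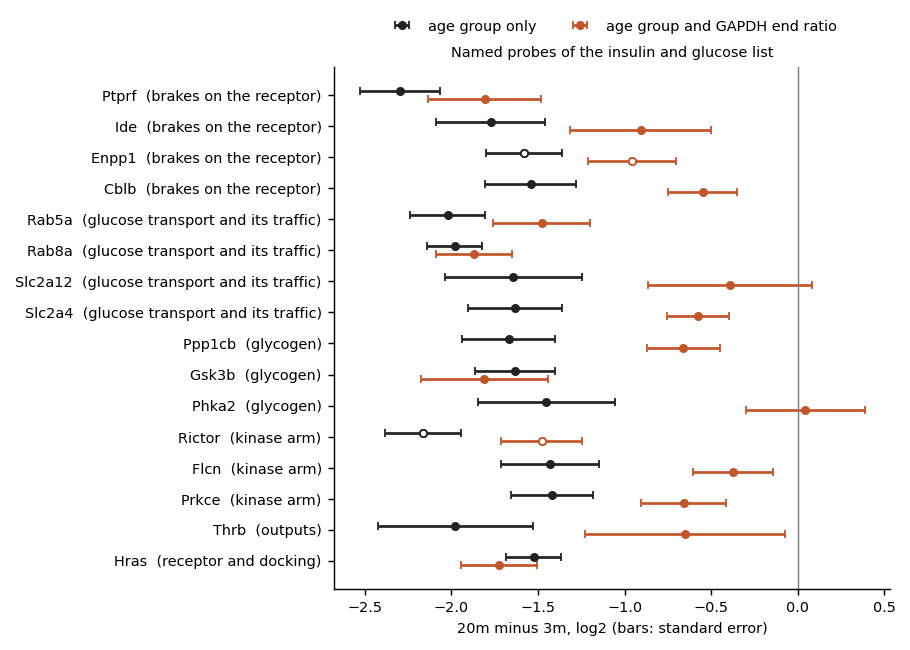
Log2 difference of 20m minus 3m (x axis) for the 16 named probes of the insulin and glucose list (y axis, with role), from the model with the age group alone (black) and with the GAPDH end ratio added (orange). Bars are standard errors, and open symbols mark Enpp1 and Rictor, which no aged heart had above background, so that their plotted values are not measured on the aged side. Slc2a4, Ppp1cb and Cblb move toward 0 with the ratio in the model, and Gsk3b, Rab8a and Hras stay near their first position.

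Markers of the cell types of the heart were looked at in the same way, and 6 of 38 had a named probe. They were 4 of 7 endothelial markers, 1 of 5 of smooth muscle and pericytes, 1 of 4 of lymphocytes, and 0 of the 6 cardiomyocyte, 5 fibroblast, 5 macrophage, 4 adipocyte and 2 blood markers. All 6 were lower in the aged hearts, which the choice of the sheet fixes. They were called without aged replicate 3 too, as were 681 of the 690 named probes and 8.04% of tested mRNA probes, while in the scan that held both ages Esm1 (-1.61, SE 0.53) was not called and Tek was not tested, where 586 of 627 named probes and 5.93% of tested mRNA probes were called. With the GAPDH ratio in the model Aplnr (-1.96, SE 0.54) and Abcc9 (-1.11, SE 0.27) were called and the other 4 were not, beside 248 of the 690 named probes and 3.18% of tested mRNA probes. With the PGK1 ratio none of the 6 was called, beside 96 named probes and 2.24% of tested mRNA probes. With normexp Tek and Cd28 were not called and the other 4 were, beside 329 named probes and 3.26% of tested mRNA probes. The endothelial Car4, a carbonic anhydrase of capillaries, had a log2 difference of -2.33 (SE 0.56), Aplnr, the apelin receptor, -2.11 (SE 0.32) and Esm1, an endothelial proteoglycan, -1.74 (SE 0.42) with overlapping groups. Tek, the angiopoietin receptor, was above background in 0 of 5 aged hearts, and by the same bound was 2.20-fold lower there. Its fitted log2 difference was -0.31 (SE 0.07) with normexp, -0.83 (SE 0.28) with the GAPDH ratio and -0.35 (SE 0.53) with the PGK1 ratio. All were smaller than the bound (1.14 on the log2 scale). Abcc9, listed here under smooth muscle and pericytes, had -1.41 (SE 0.19). Cd28 of T cells, a receptor whose signaling Cblb restrains, had -1.39 (SE 0.26), with 4 of 5 aged hearts above background. For Cd28 the difference was -0.49 with normexp, -0.43 with the GAPDH ratio and -0.24 with the PGK1 ratio. In bulk heart tissue fewer cells of a type and less RNA per cell cannot be told apart, and the part of cell makeup in the values of Slc2a4, Gsk3b, Ppp1cb and Cblb was not tested. Over the 10 hearts, with age means removed, Slc2a4 had an r of 0.17 to Car4, 0.03 to Aplnr, 0.71 to Esm1, 0.75 to Tek, 0.42 to Abcc9 and 0.93 to Cd28, and Tek was not well above background in any of the 5 aged hearts.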

How the data were processed

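Heart RNA of 5 young (3m) and 5 aged (20m) mice was labeled and hybridized to one-colour arrays, 1 mouse per array. Groups and replicates followed the sample labels. The authors deposited scanner intensities per spot, background-subtracted by Agilent Feature Extraction and not normalized between arrays. The version is 11.0.1.1 in the file headers and 9.1 in the submitters' processing notes, and the methods name yet another. The methods and labels also name different labeling kits. A second deposited table holds the authors' own log2 values, with a common distribution across arrays, and served here as an alternative. Ribosomal RNA removal is stated in the methods.

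For 60641 probes the intensities were brought to common quantiles, values under 5 were raised to 5, and log2 was taken, with control spots and outlier spots left out. A probe was kept where at least 5 of the 10 arrays had it well above background, and 16720 mRNA probes were fitted with limma 3.58.1 (lmFit and eBayes) in R 4.3.3, with Benjamini-Hochberg adjustment and limits of 0.05 and a log2 difference of 1. The p-values behind the calls measure the spread between single mice of each group. The script was tested on simulated data. Tables and plots were made in Python 3.11.15. Arrays give no count depth, and the number of arrays limits the precision. Where no aged array was above background, a bound from the main processing is given.

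Gene symbols, probe sequences and spans came from the study's supplementary sheet, of which 690 named probes were at hand. Genes named are Slc2a4, Gsk3b, Ppp1cb and Cblb, the called genes of the insulin and glucose list and of the marker list, and the 5 named probes most like and 3 least like Slc2a4 among those above background on every array. The members and lists were chosen with earlier results of these data known. Alternatives covered scaling, background correction (normexp with an offset of 50), the floor, the filter, the deposited table, the scan, control end ratios, the replicate number and each array left out. Echocardiography, histology and lncRNA probes were not analysed here.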

Additional observations from a re-analysis of the deposited data

How the results depend on the processing

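Over 84 values of Slc2a4, Gsk3b, Ppp1cb and Cblb under 21 alternatives, all 84 log2 differences were under 0 and 74 were called lower at 20m: 18 of 21 for Slc2a4, 20 for Gsk3b, 18 for Ppp1cb and 18 for Cblb. The uncalled values came from the models with an end ratio. With the GAPDH ratio the log2 difference was -0.58 for Slc2a4, -0.66 for Ppp1cb and -0.55 for Cblb. With the PGK1 ratio it was -0.31, -0.66 and -0.51, and with the GAPDH ratio in the scan that held both ages -0.54, -0.59 and -0.49. Normexp background correction gave -1.003 for Gsk3b and an r of 0.96 between Ppp1cb and Cblb, and moved the r between Slc2a4 and Gsk3b to -0.02. The count of mRNA probes called lower, 1613, was 545 with normexp, 993 in the scan with both ages, 1104 with the scan as a block, 532 with the GAPDH ratio, 375 with the PGK1 ratio and 542 with the GAPDH ratio in that scan. The cause of these shifts was not tested, and the normexp values include the effect of its offset on dim probes. The PGK1 ratio, the GAPDH ratio within 1 scan, and the likeness with scan means removed or hearts left out were chosen after seeing the data.

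When 1 array at a time was left out, the count ran from 1264 to 1854, and the log2 difference from -1.74 to -1.40 for Slc2a4, -1.74 to -1.48 for Gsk3b, -1.85 to -1.45 for Ppp1cb and -1.69 to -1.31 for Cblb. The within-age r ran from -0.49 to 0.17 for Slc2a4 and Gsk3b, with 0.17 reached without aged replicate 3, 0.83 to 0.98 for Slc2a4 and Ppp1cb, 0.83 to 0.98 for Slc2a4 and Cblb, -0.66 to -0.17 for Gsk3b and Ppp1cb, -0.65 to -0.21 for Gsk3b and Cblb, and 0.96 to 0.99 for Ppp1cb and Cblb. The replicate number as a block gave 1612 called probes and changed no call of the 4 genes. Deviations of same-numbered mice correlated at 0.23, -0.09, 0.24, 0.01 and -0.37, so the number did not pair the mice.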
